A study of Mus musculus with 9 samples.

Results

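The interleukin-1 family genes followed here were Il1a, Il1b, Il33, Il18, Il1rn, Il18bp and Il1rap, 7 of the 50600 genes in the deposited tables, taken as the rows whose symbol equals one of these names. The RNA came from RAW-Blue, a line of mouse macrophages carrying a secreted reporter driven by NF-kappaB and AP-1. The labels give 3 groups of 3 samples, all grown in the same serum-containing medium with Normocin, Zeocin and Pen-Strep. LPS cells received lipopolysaccharide at 1 µg/ml for 24 hours, LPS-PjELNs cells received exosome-like nanovesicles of Peucedanum japonicum for 16 hours ahead of the same stimulus, and None cells received neither. The 3 LPS and 3 None libraries were used, and the LPS-PjELNs samples were not analysed here because no column name matched their labels. All groups are one cell line, and the labels do not say whether replicates were separate cultures, so each p-value reflects the spread among these samples, which may be technical. In bulk RNA, fewer expressing cells and less RNA per cell cannot be told apart.

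Interleukin-1 family cytokines are made mainly by myeloid and barrier cells and act as early alarm signals. Il1a and Il1b encode the cytokines that bind the receptor Il1r1, Il33 encodes the ligand of Il1rl1 (also called ST2), and Il18 encodes the ligand of Il18r1. Il1rap encodes the accessory chain that Il1r1 and Il1rl1 need for signalling. Il1rn encodes an antagonist that occupies Il1r1 without signalling, and Il18bp encodes a soluble protein that captures the Il18 cytokine. The proteins made from Il1b and Il18 are inactive precursors that inflammasome-activated caspase-1 cuts, so transcript levels do not measure released cytokine.

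Promoter windows of 300 bases are shown for the members that differed most between the groups and, for contrast, for Il1rap, which was transcribed in both. RefSeq windows on GRCm38.p6, from 250 bases before a start to 50 after it, were found for 7 of 7 members, 10 windows in all. Capitals mark matches on either strand to a kappaB-like pattern (GGG and CC with 5 bases of any kind between them), to the AP-1 pattern TGANTCA or to the core promoter pattern TATAAA. The windows read 5′ to 3′ on the strand of the gene.
Il1a, chr2:129309923-129310222, minus strand: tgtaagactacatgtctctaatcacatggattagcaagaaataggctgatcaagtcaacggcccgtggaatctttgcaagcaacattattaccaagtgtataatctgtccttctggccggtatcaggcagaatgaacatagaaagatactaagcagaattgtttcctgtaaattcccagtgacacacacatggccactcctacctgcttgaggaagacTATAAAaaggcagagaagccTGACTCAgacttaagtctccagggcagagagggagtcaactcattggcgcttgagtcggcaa
Il1b, chr2:129371090-129371389, minus strand: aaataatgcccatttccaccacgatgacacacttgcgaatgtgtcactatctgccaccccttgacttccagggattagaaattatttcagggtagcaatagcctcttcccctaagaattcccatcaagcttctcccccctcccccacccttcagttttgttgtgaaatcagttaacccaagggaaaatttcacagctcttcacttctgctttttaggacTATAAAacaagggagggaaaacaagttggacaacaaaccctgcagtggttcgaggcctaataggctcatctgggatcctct
Il33 first start, chr19:29924863-29925162, plus strand: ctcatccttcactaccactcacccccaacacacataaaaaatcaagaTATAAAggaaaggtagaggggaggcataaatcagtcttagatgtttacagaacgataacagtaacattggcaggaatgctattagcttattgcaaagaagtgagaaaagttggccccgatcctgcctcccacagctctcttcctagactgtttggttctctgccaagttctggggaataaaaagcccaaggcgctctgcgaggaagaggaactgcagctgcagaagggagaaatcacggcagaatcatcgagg
Il33 second start, chr19:29945540-29945839, plus strand: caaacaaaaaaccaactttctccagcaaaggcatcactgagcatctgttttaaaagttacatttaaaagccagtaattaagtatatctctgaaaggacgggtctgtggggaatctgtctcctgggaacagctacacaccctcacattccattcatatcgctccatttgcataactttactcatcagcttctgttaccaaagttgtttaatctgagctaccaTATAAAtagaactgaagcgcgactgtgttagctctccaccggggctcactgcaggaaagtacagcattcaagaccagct
Il1rn first start, chr2:24336610-24336909, plus strand: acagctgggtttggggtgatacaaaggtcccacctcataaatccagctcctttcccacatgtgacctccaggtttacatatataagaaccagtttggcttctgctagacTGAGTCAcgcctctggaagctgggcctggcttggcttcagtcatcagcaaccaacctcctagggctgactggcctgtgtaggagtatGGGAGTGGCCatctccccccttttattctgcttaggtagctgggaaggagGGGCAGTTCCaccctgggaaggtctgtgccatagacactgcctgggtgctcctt
Il1rap, chr16:26581455-26581754, plus strand: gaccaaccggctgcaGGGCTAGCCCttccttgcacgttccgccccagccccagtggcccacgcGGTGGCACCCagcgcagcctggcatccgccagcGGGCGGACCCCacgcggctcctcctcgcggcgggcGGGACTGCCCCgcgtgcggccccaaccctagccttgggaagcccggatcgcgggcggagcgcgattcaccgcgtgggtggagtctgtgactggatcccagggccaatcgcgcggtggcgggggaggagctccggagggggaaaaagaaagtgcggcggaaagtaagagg

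A TATAAA match began 32 bases before the start of Il1a, 31 before that of Il1b and 29 before the second start of Il33. Further matches lay at -203 in the first Il33 window, at -175 in the Il18 window and at 15 in the third Il1rn window. The Il18 window, chr9:50554450-50554749 on the plus strand, lies upstream of the Il18 gene start of 50565374 given below. TATAAA was present in 13.6% of the 32851 promoter windows in the table. The AP-1 pattern was found in Il1a at position -12 and in the first window of Il1rn at position -141, against 7.81% of all windows. The kappaB-like pattern, which 50.8% of all windows held, had no match in the windows of Il1a, Il1b, Il33, Il18 and Il18bp. It matched the first Il1rn window at -54 and -4, the second at 30 and the third at -51, and the Il1rap window at -235, -187, -154, -153, -119 and -118, where some matches overlap each other. TTNNGNAA (C/EBP-like, in 40.7% of windows) matched Il1b at -91 and Il1a at -43, where it overlapped a match to GAGGAA (PU.1-like, in 28.3% of windows). It also matched the Il33 windows at -159 in the first and at -85 and -58 in the second, the Il18bp window at -49, and the other two Il1rn windows, which overlap, at 3 positions each. GAGGAA also matched the first Il33 window at -4 and 3. An ISRE-like pattern (2 copies of GAAA with 2 bases of any kind between them, in 3.44% of windows) matched Il1rap alone among the members, at position 21. The Il1rap window held 33 CpG dinucleotides and 72% G and C, where the median window held 7 and 52.7%. The windows of Il1b and Il1a held 3 and 5 CpG, the Il33 windows 6 and 5, and the Il1rn windows 1, 5 and 4. The Il18bp window held 5. The Il18 window held 1 CpG and 36.7% G and C, although Il18, like Il1rap, was transcribed in both groups. A match or its absence describes these letters only. The counts are not divided between starts, so the start used by Il33 or Il1rn was not measured.

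LPS-stimulated cells held large amounts of Il1b, Il1a and Il33 transcripts, which were at or near 0 counts in unstimulated cells. Il1rn was also higher in LPS but stayed at a low level, while Il18 and Il1rap, present in unstimulated cells, rose about equally, 2.94-fold and 3.00-fold. Il18bp stayed at a few counts per library in both groups. In TPM (a transcript level scaled for transcript length and library), the order in LPS was Il1b, Il1a, Il33, Il18, Il1rap, Il1rn and Il18bp. The values of Il1a and Il33 overlapped between LPS libraries, as did those of Il1rap and Il1rn, and the other neighbours in that order did not. In None the order was Il18, Il1rap, Il1b, Il18bp, Il1rn, Il1a and Il33, with overlap between Il1b, Il18bp and Il1rn and between Il1a and Il33.

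**Figure D1:**
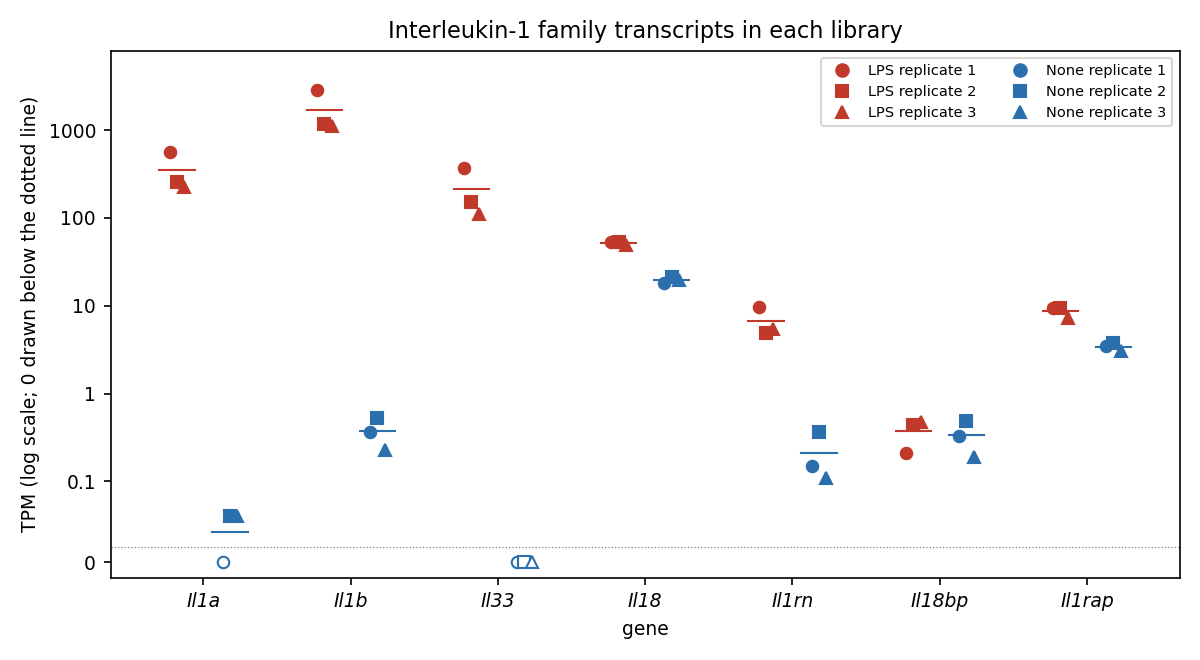
TPM of each family member on a log axis in the 3 LPS libraries (red) and the 3 None libraries (blue), with horizontal lines at group means; open symbols below the dotted line are libraries at 0. Il1a, Il1b and Il33 lie between 110 and 2836 TPM in LPS and at 0.53 TPM or less in None, while Il18bp lies between 0.19 and 0.49 TPM in both groups.

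Of 11916 genes that passed the filter on low counts, 69.1% passed an adjusted p of 0.05 (edgeR's quasi-likelihood F test, adjusted after Benjamini and Hochberg), 34.0% higher and 35.1% lower in LPS. Of the 7 members 6 passed the filter and were called higher, but 4 of them (Il1a, Il1b, Il33 and Il1rn) passed through their LPS libraries alone and had to differ. Values scaled for library size did not overlap between groups in 73.6% of tested genes, with LPS the higher group in 35.7%. The 6 tested members were among these, but for the 4 that passed through LPS alone this too followed from the filter. Only Il18 and Il1rap could have overlapped. Totals ran from 14650825 to 17665201 counts per library. Macrophage markers were abundant, with a summed level of 22379 to 23991 CPM (counts scaled for library size with TMM factors) in LPS and 12249 to 13730 CPM in None. Most of each sum came from Lyz2, with a mean of 16610 CPM in LPS and 8337 CPM in None. Of 9 tested macrophage markers 4 were called higher, 2 (Csf1r and Ptprc) lower and 3 neither. Of 10 such markers only Mertk was absent or nearly so, with 2 counts in LPS and 0 in None. All 5 mast cell markers had 0 counts in every library. Neutrophil markers summed to 14.1 to 17.5 CPM in LPS, nearly all from S100a8, with Mpo, Ly6g and Ngp at 0 throughout. In None they summed to 0.155 to 0.271 CPM, from 8 counts of S100a8 and 5 of Elane. T cell markers summed to 4.9 to 7.36 CPM in LPS and 2.02 to 3.1 CPM in None, with Cd3e, Cd3d and Cd3g at 0 throughout.

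Il1b (ENSMUSG00000027398, chromosome 2, 129364570 to 129371139, minus strand, GRCm38) was the most abundant member in LPS. Its counts were 40723, 15839 and 16518 in LPS replicates 1 to 3 and 6, 9 and 4 in None replicates 1 to 3. Per length this was 2836, 1164 and 1124 TPM in LPS, against 0.37, 0.53 and 0.23 TPM in None. Every LPS library lay far above every None library, and LPS replicate 1 stood above the other LPS libraries. Ranked by TPM, Il1b was gene number 46, 144 and 156 in the LPS libraries and number 12381, 12090 and 12974 in the None libraries. The log2 fold change was 12.32 ± 0.52 (SE), adjusted p 8.72e-10 in the edgeR fit. Because None held 19 counts in all, the ratio of summed counts, 5267, had a 95% counting interval from 3372 to 8748. Reads carry no molecular identifiers, so such intervals cover counting error only.

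Il1a (ENSMUSG00000027399, chromosome 2, 129299610 to 129309972, minus strand), 54598 bases from Il1b, encodes a cytokine that is active as a precursor and can act in the nucleus. It had 12885, 5531 and 5220 counts in LPS and 0, 1 and 1 in None. The corresponding levels were 564, 253 and 223 TPM in LPS, against 0, 0.04 and 0.04 TPM in None. The groups were far apart, and the ratio of summed counts was 16183 with a 95% counting interval from 4479 to 133633, wide because None held 2 counts. The adjusted p in the edgeR fit was 1.41e-09. Few counts were assigned to genes on the opposite strand: Gm14023 at Il1a had 9 in LPS and 7 in None, and Il1bos at Il1b had 14 in LPS and 4 in None. Strandedness of the libraries is not given, so reads of the 2 strands may not be separated where the genes overlap.

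Genes around Il1a moved both ways and by far less. Ckap2l, a spindle protein gene whose end lies 2398 bases from Il1a, was lower in LPS at 23.1 CPM, against 51.9 CPM in None (log2 fold change -1.17, adjusted p 2.3e-05 in the edgeR fit). Besides Il1b, 10 tested genes lay within 300 kb of Il1a. Of these, 5 were called higher and 3 lower, where 34.0% and 35.1% of all tested genes were. Log2 fold changes of the 10 neighbours ran from -1.58 to 1.98, the highest being that of the phosphate carrier Slc20a1. These neighbours were chosen by distance.

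Il33 (ENSMUSG00000024810, chromosome 19, 29925114 to 29960718, plus strand) encodes a nuclear cytokine best known from epithelial, endothelial and stromal cells. It had 11232, 4363 and 3425 counts in LPS, or 370, 152 and 110 TPM, and 0 counts in each None library. With 3 counts summed over the None libraries taken as the limit of a count of 0 (0.0525 CPM), Il33 was at least 8682-fold higher in LPS. Without LPS replicate 1 this bound was 5365-fold, and with 1 None library left out it was 5741-fold to 5880-fold. The fitted log2 fold change, which depends on edgeR's prior count because None is at 0, was 15.87 with all libraries and 15.22 without LPS replicate 1. The adjusted p in the edgeR fit was 1.5e-07. Of 6 epithelial markers none had a count in LPS, and in None the same 6 summed to at most 0.155 CPM. Fibroblast markers summed to 0.794 to 2.63 CPM in LPS and 0 to 0.0517 CPM in None, with Col1a2 and Col3a1 at 0 in all libraries. Endothelial markers summed to 8.06 to 10.9 CPM in LPS and 10.6 to 14.8 CPM in None, nearly all from Vwf, with Emcn at 0 in both groups. The fibroblast gene Dcn followed the same library order as Il33, with 2.42, 0.653 and 0.505 CPM in LPS replicates 1 to 3, and its part in the result was not tested.

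Il18 (ENSMUSG00000039217, chromosome 9, 50565374 to 50581837, plus strand) was the member with the highest level in unstimulated cells. It had 373, 354 and 355 counts in LPS and 143, 179 and 183 in None. Levels were 53.3, 52.8 and 49.7 TPM in LPS, against 18.04, 21.5 and 19.9 TPM in None. The groups did not overlap, and LPS libraries varied little. The log2 fold change was 1.55 ± 0.10 (SE), adjusted p 5.73e-08 in the edgeR fit. The TPM ratio of Il1b to Il18 was 53.2, 22.0 and 22.6 in LPS and 0.0205, 0.0247 and 0.0116 in None.

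Il1rn (ENSMUSG00000026981, chromosome 2, 24336853 to 24351494, plus strand), the receptor antagonist, had 208, 116 and 105 counts in LPS and 5, 10 and 3 in None. This was 9.65, 4.88 and 5.37 TPM in LPS, against 0.15, 0.37 and 0.11 TPM in None. The groups were well separated although levels were low throughout. Il1rn was 31.8-fold higher in LPS (log2 fold change 4.99 ± 0.38 SE, adjusted p 1.79e-07 in the edgeR fit). Secreted and intracellular forms start from different promoters and cannot be told apart in counts per gene.

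Il18bp (ENSMUSG00000070427, chromosome 7, 102014885 to 102018155, minus strand) had 3, 10 and 10 counts in LPS and 8, 7 and 5 in None and did not pass the filter. The groups overlapped. The ratio of summed counts was 1.57, with a 95% counting interval from 0.827 to 3.02, so no difference was detectable at this depth and a change of 3-fold lies inside the interval. With no filter, edgeR's quasi-likelihood test gave a log2 fold change of 0.63 and an adjusted p of 0.364. Without LPS replicate 1 the gene passed the filter at a log2 fold change of 1.03, with an adjusted p of 0.0594 by the same edgeR test. It passed there through its LPS libraries alone, at 10 counts each, after the lowest LPS library was left out. That fit therefore gives no support for a difference.

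Set against the cytokines, antagonist transcripts were scarcer in LPS. The TPM ratio of Il1rn to the sum of Il1a and Il1b was 0.00284, 0.00344 and 0.00399 in LPS, against 0.405, 0.649 and 0.407 in None. The groups did not overlap, and the mean was 0.00342 ± 0.000575 in LPS and 0.487 ± 0.14 in None (SD, n = 3 each). The None values rest on 18 Il1rn counts, set against 19 Il1b and 2 Il1a counts, so counting error limits both sides of the ratio there. For Il18bp over Il18 the ratio was 0.00394, 0.00833 and 0.00946 in LPS, against 0.0183, 0.0228 and 0.00955 in None. These values came close together in LPS replicate 3 and None replicate 3, and on CPM values the groups overlapped. Both ratios are descriptions without a test.

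**Figure D2:**
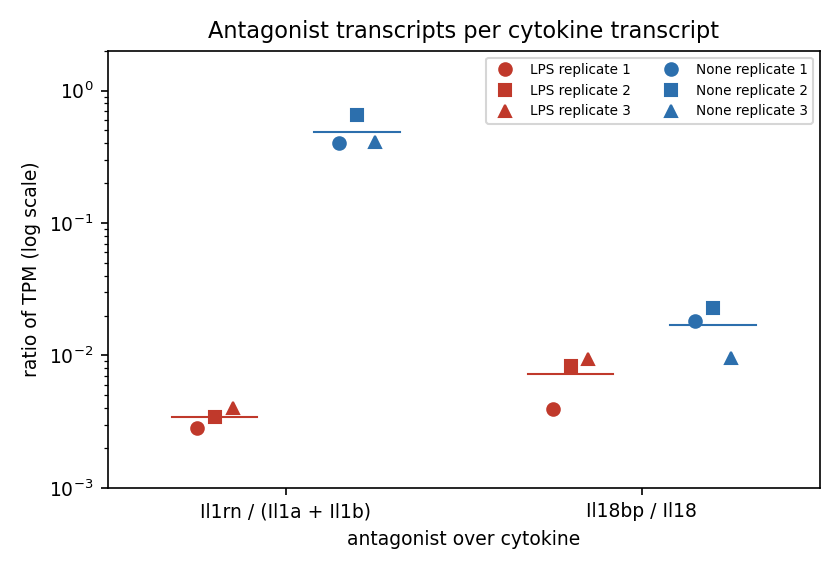
TPM of an antagonist over that of its cytokine on a log axis, in LPS libraries (red) and None libraries (blue), with lines at group means. Il1rn over Il1a plus Il1b lies at 0.00399 or less in LPS and at 0.405 or more in None, while Il18bp over Il18 has 0.00946 as its highest LPS value and 0.00955 as its lowest None value.

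Il1rap (ENSMUSG00000022514, chromosome 16, 26581704 to 26725264, plus strand) had 496, 464 and 378 counts in LPS and 199, 225 and 187 in None. Levels were 9.49, 9.49 and 7.26 TPM in LPS, against 3.47, 3.76 and 3.03 TPM in None, without overlap. The log2 fold change was 1.58 ± 0.12 (SE), adjusted p 1.52e-07 in the edgeR fit. Membrane and soluble forms of the chain are not separated by these counts.

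The receptor genes of the family were unequally expressed. Of 10 receptor family genes, Il1rap included, 4 were tested, of which 3 were called higher and 1 lower in LPS, against 34.0% higher and 35.1% lower over all tested genes. The median log2 fold change of the 4 was 1.36, against -0.03 over all tested genes. Il1rl1, the receptor of the Il33 cytokine, was 7-fold higher, at 124 ± 17.7 CPM in LPS and 17.6 ± 0.725 CPM in None (SD, n = 3 each; adjusted p 3.3e-10 in the edgeR fit). Il18rap, the accessory chain for the Il18 cytokine, rose 2.21-fold to 39.5 ± 3.77 CPM in LPS, against 17.9 ± 1.24 CPM in None. Its partner Il18r1, which binds the cytokine, had 0 counts in all 6 libraries. Il1r1, the signalling receptor for Il1a and Il1b, had 1 count in LPS and 0 in None, and the decoy Il1r2 had 0 in both. Sigirr, an inhibitory member of the receptor family, was lower in LPS at 10.5 ± 1.69 CPM, against 14.5 ± 0.861 CPM in None (log2 fold change -0.46). Il1rl2, Il1rapl1 and Il1rapl2 had 0 counts in every library.

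Among the other ligands, the genes of the interleukin-36 cytokines gave a small signal in LPS. Il1f9, the gene for interleukin-36 gamma, had 149 counts in LPS and 0 in None and was at least 68.0-fold higher by the same limit. It passed the filter through its LPS libraries alone and had to differ. It lies 143285 bases from Il1rn. Il1f6, for interleukin-36 alpha, had 23 counts in LPS and 0 in None, which is at least 10.5-fold higher, and it did not pass the filter. Il1f5, Il1f8 and Il1f10 had 0 counts in all libraries.

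Genes that process or release these cytokines moved both ways. Of 25 listed genes 18 were tested, of which 10 were called higher and 4 lower, where 69.1% of all tested genes were called, 34.0% higher and 35.1% lower. The list's median log2 fold change was 0.48, and that of all tested genes -0.03. Library-total scaling gave 8 higher and 7 lower calls in the list, beside 2679 and 6076 over all tested genes. Values of log2(TPM + 1) gave 8 and 6 in the list, beside 2795 and 5142 over all tested genes. The largest increases were those of Ninj1, which ruptures the plasma membrane in lytic death (log2 fold change 2.15), Hax1 (1.29), the pore protein gene Gsdmd (1.13) and the protease gene Casp8 (1.11). The largest decreases were those of P2rx7, the ATP-gated channel that triggers the Nlrp3 inflammasome (-1.68), and the sensor Nlrp1b (-1.45). Further genes are named here after their values were seen. The sensor Nlrp3 was 1.92-fold higher, at 111 ± 21.6 CPM in LPS and 57.6 ± 1.55 CPM in None. Casp1, whose protease cuts the Il1b and Il18 precursors, lay at 38.7 ± 1.55 CPM in LPS and 40.2 ± 2.62 CPM in None and was not called (adjusted p 0.577 in the edgeR fit), although it was called lower with scaling by library totals (-0.31) and on the log2(TPM + 1) scale (-0.27). Pycard, the adaptor that links Nlrp3 to caspase-1, had 0 counts in all 6 libraries.

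Genes of the signalling path below the receptors were divided. Of 24 listed genes 22 were tested, 11 called higher and 8 lower, beside 34.0% and 35.1% of all tested genes. The median log2 fold change was 0.16 in the list and -0.03 over all tested genes. Scaling by library totals gave 8 higher and 10 lower in the list, beside 2679 and 6076 over all tested genes. On log2(TPM + 1) values the list had 9 and 10, beside 2795 and 5142 over all tested genes. The largest changes were increases of Nfkbia, the NF-kappaB inhibitor (3.50), the inhibitory kinase-like Irak3 (2.42), the ubiquitin ligase Peli1 (2.08), the kinase Irak2 (1.99) and Nfkb1 (1.45), and a decrease of the adaptor Tifa (-1.58). Irak1 (-1.08) and Myd88 (-0.65), the kinase and adaptor used by all signalling receptors of the family, were called lower, and are named after their values were seen.

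Of 18 genes of transcription and mRNA control 17 were tested and 12 called, a share near the 69.1% of all tested genes. The calls were 10 higher and 2 lower, beside 34.0% and 35.1% of all tested genes, and the median log2 fold change was 0.64, beside -0.03. With scaling by library totals these counts were 9 and 3, beside 2679 and 6076 over all tested genes. The largest increases were those of Nfkbiz, a nuclear cofactor of NF-kappaB (3.68), Zc3h12a, a ribonuclease that degrades cytokine mRNAs (3.48), the nuclear receptor Nr1d1 (3.02), the transcription factors Cebpb (1.98) and Nr4a1 (1.93), and Hif1a (1.79). Spi1, which encodes the myeloid factor PU.1, had a log2 fold change of 0.11 and was not called (-0.14 with scaling by library totals).

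**Figure D3:**
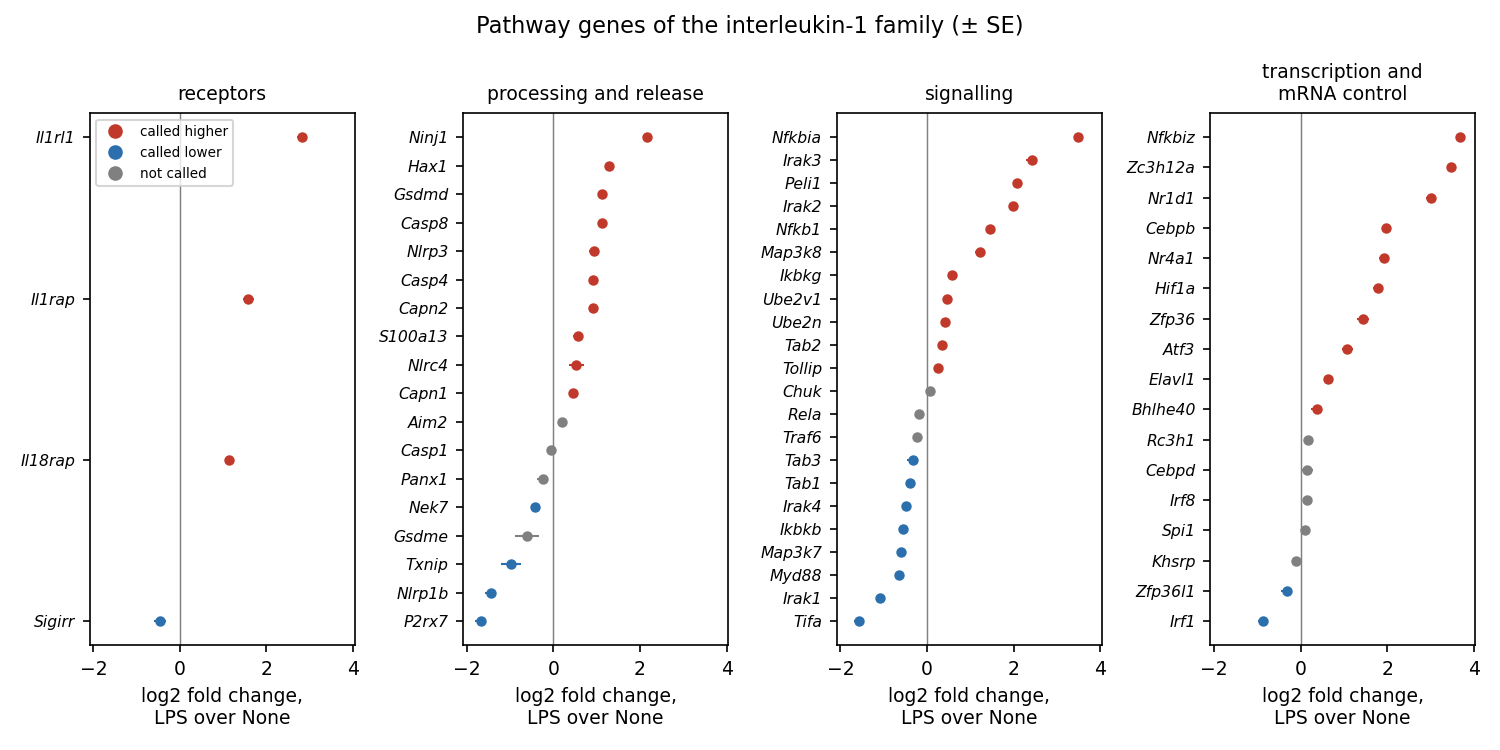
Fitted log2 fold change of LPS over None (horizontal axis, bars are ± SE) for tested genes of 4 lists, coloured by whether edgeR's quasi-likelihood test called them higher (red), lower (blue) or neither (grey). Receptor genes run from -0.46 for Sigirr to 2.81 for Il1rl1, and the other lists hold genes on both sides of 0.

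The spread between LPS replicates divided the family. The coefficient of variation (CV) of CPM among the LPS libraries was 53.9% for Il1a, 57.0% for Il1b, 66.1% for Il33 and 38.4% for Il1rn, against 13.2% for Il1rap, 1.88% for Il18 and a median of 9.61% over tested genes. The 268 genes called at least 10-fold higher in LPS had a median CV of 18.2%, and 15.7% of them were at least 1.5-fold above the mean of the other LPS libraries in LPS replicate 1. Il18bp had a CV of 53.3% on 23 counts. LPS replicate 1 exceeded the mean of the other LPS libraries 2.35-fold for Il1a, 2.47-fold for Il1b, 2.83-fold for Il33 and 1.85-fold for Il1rn, but 1.16-fold for Il1rap and 1.03-fold for Il18. Without LPS replicate 1 the CV was 4.54% for Il1a, 2.52% for Il1b, 17.5% for Il33, 7.49% for Il1rn, 0.252% for Il18 and 0.452% for Il18bp, and without LPS replicate 3 that of Il1rap was 3.18%. For Il18 these libraries held 354 and 355 counts, and for Il18bp 10 and 10. Counting error is larger than CVs this small, also than the 1.88% of Il18, so they do not measure a tight level. The high library was the same for Il1a, Il1b and Il33, so their proportions moved less than their levels. The TPM ratio of Il1a to Il1b was 0.199, 0.218 and 0.199 in LPS replicates 1 to 3, and that of Il33 to Il1b was 0.131, 0.131 and 0.0981.

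A surplus of this size in LPS replicate 1 was uncommon. Of 9639 tested genes with at least 5 CPM on average in LPS, 17 (0.176%) were at least 2-fold above the mean of the other LPS libraries there. Among the 177 of them that were called at least 10-fold higher in LPS, 11 (6.21%) were, and these included Il1a, Il1b and Il33. Others of the 11, named after their values were seen, were the chemokine gene Cxcl3 (3.15-fold), the feedback inhibitor of EGF receptor signalling Errfi1 (2.87-fold) and the costimulatory receptor gene Tnfrsf9 (2.38-fold). On the second principal component, with 3.23% of the variance, LPS replicate 1 had a score of 23, LPS replicate 2 of -7.49 and LPS replicate 3 of -16. What sets this library apart was not tested.

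**Figure D4:**
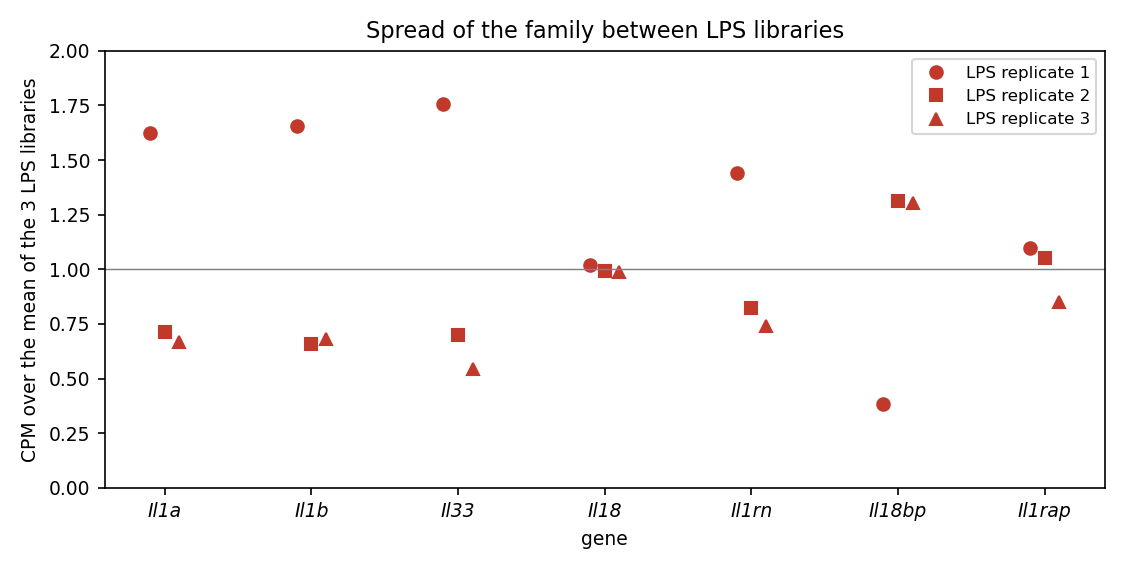
CPM of each member in the 3 LPS libraries divided by their mean (linear axis; circle, square and triangle are replicates 1, 2 and 3; the grey line is 1). Replicate 1 is high for Il1a, Il1b, Il33 and Il1rn, where it exceeds the mean of the others 1.85-fold to 2.83-fold, is low for Il18bp, and is level with them for Il18.

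Genes with the most similar pattern were found by the Euclidean distance between log2 CPM values centred on each gene's mean over the 6 libraries. Only genes with a mean of at least 5 CPM were ranked, and predicted genes, pseudogenes and genes without a symbol were left out. The nearest gene to Il1b was Il33 (distance 0.70), followed by Il1a (0.755) and the growth factor gene Csf3 (1.76). For Il33 they were Il1a (0.513), Il1b (0.70) and the nitric oxide synthase gene Nos2 (1.49). For Il18 they were the kinase gene Prkca (0.108), Creld2 (0.11) and the lipid droplet gene Plin2 (0.129), all with changes close to that of Il18 and little spread in LPS. For Il1rn they were Igsf3 (0.875), the peptide carrier Slc15a3 (0.918) and the arginase gene Arg2 (0.941). With 6 libraries in 2 groups these distances mostly measure the size of the difference between LPS and None.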

How the data were processed

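Total RNA of RAW-Blue cells was sequenced as paired reads and cleaned with SOAPnuke, per the labels' protocols. STAR 2.7.10a, RSEM 1.3.1 and the build GRCm38 are listed in the submitters' processing notes. The authors deposited expected counts, which are estimates that split ambiguous reads among genes, and TPM, which the authors scaled for transcript length. Strandedness of the libraries is not given in the sources used. Labels matched 6 columns of the count and TPM files each, and 12 others matched none and were not used.

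Expected counts were rounded. Genes were filtered with filterByExpr (minimum count 10, total 15), scaled by TMM and fitted with group as the single term in edgeR 4.0.16 (glmQLFit, glmQLFTest, two-sided, R 4.3.3), with Benjamini-Hochberg adjustment over 11916 genes and a threshold of 0.05. The edgeR steps were tested on simulated counts in which few genes changed, as many up as down. Most tested genes were called in the real data, so the simulation does not check the scaling by TMM there. An SE is the log2 fold change divided by the root of the F statistic. Starts in the files count from 0 and were raised by 1. No replicate pair agreed within sampling noise (chi-square over its degrees of freedom 3.29 to 17.45).

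Members and lists were chosen with earlier results of these data known. The text names all members, all receptors and other ligands, and up to 6 called genes with the largest changes of each longer list. It also names 3 pattern neighbours each for Il1b, Il33, Il18 and Il1rn. Alternatives were RLE factors, library totals, DESeq2 1.42.0, 2 other filters, limma 3.58.1 on log2(TPM + 1) and log2(TPM + 0.1), a replicate block and leaving out each library.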

Additional observations from a re-analysis of the deposited data

How the results depend on the processing

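Il18 and Il1rap, which passed the filter in both groups, kept their direction and stayed past the threshold in all 15 alternatives, with log2 fold changes from 1.29 to 1.60 for Il18 and 1.14 to 1.70 for Il1rap. The other 4 tested members passed through LPS alone, so their calls say nothing about stability; their log2 fold changes ran from 2.61 to 5.54 for Il1rn, 10.14 to 12.64 for Il1b, 8.28 to 14.01 for Il1a and 7.53 to 16.22 for Il33. The low ends of these 4 come from log2(TPM + 1), whose pseudocount compresses genes near 0 in None. Scaling by library totals shifted all genes by a median of -0.26 and called 2679 genes higher and 6076 lower, against 4052 and 4180. On CPM in place of TPM the ratio of Il1rn to Il1a plus Il1b averaged 0.00471 in LPS and 0.811 in None, and that of Il18bp to Il18 averaged 0.0215 in LPS and 0.0408 in None; CPM is not divided by length. The CV of Il18 in LPS was 3.79% on TPM. With 1 LPS library left out, the CV ran from 4.54% to 59.0% for Il1a, 2.52% to 61.0% for Il1b, 17.5% to 74.6% for Il33, 0.252% to 2.41% for Il18, 7.49% to 45.6% for Il1rn, 0.452% to 77.2% for Il18bp and 3.18% to 18.03% for Il1rap. Same-numbered LPS and None libraries hardly deviated together (correlations 0.0825, -0.0198 and 0.00954). Pairing by number was not evident, although 3 libraries a group cannot exclude it. A fit with the replicate block called 8362 genes and changed no call of a member. With the block, 10 signalling genes were called lower, against 8 without it. Low counts in None limit the folds of Il1a, Il1b, Il33 and Il1rn, and Il18bp cannot be judged at this depth.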
